A study of Mus musculus with 4 samples.

Results

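The cells described here are plasmacytoid dendritic cells (pDCs), picked out of CD45+ leukocytes that were sorted by flow cytometry from the mouse dura mater and brain and sequenced as single cells. A cell was counted as a pDC when at least 3 of the 6 genes Siglech, Ccr9, Cox6a2, Klk1, Tcf4 and Ly6d were above 0, with Siglech at 1 or more on the deposited natural log scale. P2ry12, Tmem119, Cd79a and Cd3e had to be at 0, C1qa below 1.5, and the cell had to show more than 1000 genes and at most 7% of its signal from mitochondrial genes. This rule found 74 pDCs among 15476 cells that passed the same limits on genes and mitochondrial content. The mice were C57BL/6J animals aged 8 weeks, and cells were taken on day 3 after photothrombotic injury (PTI) that damages vessels of both the dura mater and the brain (D3, INJ in the sample names) or after the sham procedure (S3, CT in the sample names). Photothrombotic injury closes vessels with light after a photosensitive dye has been given. Each of the 4 combinations of tissue and condition was 1 library, the number of mice in it was not given in the sources used here, and all groups share the CD45+ sort. With 1 library per group there is no replicate check and no test. The intervals below are exact 95% intervals that cover counting error only, and a condition and its library cannot be told apart.

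Plasmacytoid dendritic cells are blood-borne dendritic cells that recognise viral and self nucleic acids in endosomes, through TLR7 and TLR9, and can then release large amounts of type I interferon. They develop under the transcription factor TCF4 (E2-2), which binds E-box DNA motifs, and they share part of their gene program with B lymphocytes. They are rare in the healthy central nervous system, where the meninges are one of the places in which they are found.

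The rule genes other than Tcf4 are listed here with their places in the mouse genome (GRCm38, GENCODE annotation). Siglech, a sialic acid binding receptor that signals through an adaptor, lies at chr7:55768178-55778925 on the plus strand. Ccr9, the receptor of the gut and thymus chemokine CCL25, lies at chr9:123678439-123784330 on the plus strand. Cox6a2, a subunit of mitochondrial cytochrome c oxidase otherwise typical of muscle, lies at chr7:128205435-128206387 on the minus strand. Klk1, a tissue kallikrein protease, lies at chr7:44225360-44229618 on the plus strand. Ly6d, a small surface protein also found on B cell precursors, lies at chr15:74762056-74763620 on the minus strand.

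The sequences that precede the RefSeq starts of 4 of the leading genes are printed below, so that they can be read against the E-box letters. They are the rule genes Siglech, Ccr9 and Klk1, and Cd300c, the gene with the largest ratio in pDCs that the rule did not use. Each line holds the 250 bases upstream of the start in GRCm38.p6, 5′ to 3′ on the gene's own strand, with every CANNTG in capitals. The windows are chr7:55767934-55768183 on the plus strand for Siglech, chr9:123766961-123767210 on the plus strand for Ccr9, chr7:44225110-44225359 on the plus strand for Klk1, and chr11:114960508-114960757 on the minus strand for Cd300c. The Ccr9 and Cd300c windows lie inside the longer gene models of the GENCODE annotation.
Siglech: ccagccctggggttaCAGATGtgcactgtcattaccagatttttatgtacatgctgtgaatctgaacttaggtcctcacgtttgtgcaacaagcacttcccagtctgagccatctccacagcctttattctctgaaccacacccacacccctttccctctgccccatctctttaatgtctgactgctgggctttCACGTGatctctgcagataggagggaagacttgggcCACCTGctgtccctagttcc
Ccr9: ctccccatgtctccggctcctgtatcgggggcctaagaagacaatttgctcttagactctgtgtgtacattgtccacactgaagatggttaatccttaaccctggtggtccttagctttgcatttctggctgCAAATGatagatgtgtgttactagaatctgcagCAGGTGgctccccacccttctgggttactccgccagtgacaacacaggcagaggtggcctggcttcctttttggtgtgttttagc
Klk1: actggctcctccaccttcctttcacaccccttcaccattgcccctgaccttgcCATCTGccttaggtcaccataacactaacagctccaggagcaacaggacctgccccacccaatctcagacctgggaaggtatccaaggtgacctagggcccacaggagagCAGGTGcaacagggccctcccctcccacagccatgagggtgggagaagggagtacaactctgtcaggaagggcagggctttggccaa
Cd300c: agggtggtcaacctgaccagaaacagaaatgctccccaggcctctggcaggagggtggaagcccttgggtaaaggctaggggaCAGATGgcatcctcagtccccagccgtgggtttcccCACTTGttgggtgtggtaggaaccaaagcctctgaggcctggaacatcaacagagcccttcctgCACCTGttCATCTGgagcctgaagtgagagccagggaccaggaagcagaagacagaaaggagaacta

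CANNTG reads the same on both strands and was found 3 times upstream of Siglech, 2 times upstream of Ccr9 and of Klk1, and 4 times upstream of Cd300c. Among 32851 promoter windows of the same length in the RefSeq table, 66.2% held at least 1 CANNTG, 12.2% at least 3 and 3.84% at least 4. Each of the 4 windows also held 1 CAGGTG or CACCTG, which is 1 motif read on either strand and overlaps CANNTG by construction, against 17.2% of all windows with at least 1. They were the only windows with this motif among those of the 15 genes with the largest ratio in pDCs, 10 of which had a window in the table. Of these 10 windows 7 held CANNTG, close to the share over all windows. The windows of Pacsin1, Upb1 and Atp1b1 held none. A match of letters is a description and does not show that TCF4 binds there.

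The libraries held 3515 to 5925 barcodes and 49003977 to 115154317 unique molecular identifiers (UMIs, each standing for 1 captured RNA molecule). Any pair of libraries shared 3 to 11 cell barcodes, and no pDC barcode occurred in another library. The 74 pDCs gave 1062067 UMIs, with 215405 in the S3 brain, 382184 in the S3 dura mater, 184328 in the D3 brain and 280150 in the D3 dura mater. The median UMI count per pDC was 11567.5, 11901, 10381 and 15842 in the same order. Levels are given as UMIs of a gene per 1000000 UMIs of all pDCs of a library (counts per 1000000, CPM). A 3′ tag method counts 1 tag per molecule, so these levels are not divided by gene length.

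pDCs made up a small share of the leukocytes in every library. They were 28 of 3669 cells in the S3 dura mater, or 0.763% (0.508 to 1.10%), and 15 of 2862 cells in the D3 dura mater, or 0.524% (0.294 to 0.863%). In the brain they were 16 of 3842 cells in S3, or 0.416% (0.238 to 0.675%), and 15 of 5103 cells in D3, or 0.294% (0.165 to 0.484%). The share in D3 was 0.687 times that in S3 in the dura mater (0.341 to 1.33) and 0.706 times that in S3 in the brain (0.325 to 1.52). The brain share was 0.546 times the dura mater share in S3 (0.276 to 1.04) and 0.561 times in D3 (0.255 to 1.23). All 4 intervals of these ratios included 1, so no difference in share was detectable at this number of cells. A share also moves with the other cells of its library, such as microglia, which were 628 cells in the S3 brain and 1570 in the D3 brain under a gate on P2ry12 and Tmem119.

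**Figure D1:**
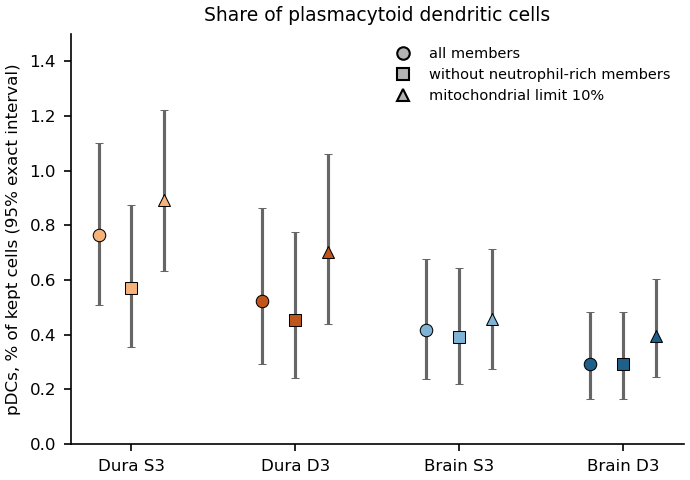
Share of kept cells that passed the pDC rule (y axis, %) in each of the 4 libraries (x axis), under the rule as stated and 2 alternatives of it; points are shares and bars are exact 95% intervals for counting error. Under the rule as stated the S3 dura mater is highest at 0.763% and the D3 brain lowest at 0.294%, with overlapping intervals.

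The number of rule genes that a member carried differed between cells, and Klk1 was the gene most often missing. All 6 genes were above 0 in 34 members, 5 in 25, 4 in 9 and exactly 3 in 6. The lowest natural log value of Siglech inside the rule was 1.95 in the S3 brain, 1.0 in the S3 dura mater, 1.17 in the D3 brain and 1.35 in the D3 dura mater. The 10 cells that met every other condition with Siglech above 0 but under the limit had values of at most 0.872. Siglech was at 0 in 1 further such cell of the S3 brain and in 2 of each other library. The most cells were left out by the condition that P2ry12, Tmem119, Cd79a and Cd3e are at 0 and C1qa is below 1.5. It left out 87 in the S3 brain, 37 in the S3 dura mater, 117 in the D3 brain and 25 in the D3 dura mater.

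Siglech stood at 1495 CPM in the S3 brain, 1549 in the S3 dura mater, 1210 in the D3 brain and 1206 in the D3 dura mater. Ccr9 stood at 854, 667, 960 and 471, and Cox6a2 at 1467, 997, 1194 and 1264. These genes were used to choose the cells, and they had values of the same order in all 4 libraries. Klk1 was uneven, with 27.9 CPM in the S3 brain, 327 in the S3 dura mater, 309 in the D3 brain and 153 in the D3 dura mater. It had 231 UMIs in 37 of the 74 cells, and only 6 of these UMIs, in 4 cells, came from the S3 brain. Klk1 belongs to a family of near-identical kallikrein genes, so its count is uncertain where reads could be split among copies.

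The 6 members with exactly 3 rule genes differed from the cells with all 6 in genes that the rule did not use. Leaving aside neutrophil-rich cells, which are described next, Irf8 was at 1139 CPM in those 6 cells against 2757 in the 30 with all 6 genes, and Spib at 20.2 against 337. IRF8 and SPI-B are transcription factors of the pDC program. The invariant chain gene Cd74 was at 10481 against 6859, the protease inhibitor gene Cst3 at 4253 against 1494, and Cx3cr1, the fractalkine receptor, at 101 against 11.6. Crip1 was at 2056 CPM against 801. Cx3cr1, with 10 UMIs against 5, and Crip1 belong to the list of transitional dendritic cell genes. In this list Lgals3 (726 against 365 CPM) and S100a6 (1512 against 569) were also higher. Lyz2 (413 against 1703), Ms4a4c (10.1 against 177) and Axl (0 against 16.3) were lower, and S100a4 was nearly equal (343 against 346). Of these 6 cells, 3 were in the D3 brain and 1 was in each of the other libraries. The subsets were formed after the values were seen, and nothing was tested between them.

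Some members carried neutrophil RNA. In 10 of the 74 pDCs the 7 neutrophil markers S100a8, S100a9, Retnlg, Csf3r, Mmp8, Ly6g and Cxcr2 supplied 1.95 to 26.8% of the UMIs, while they supplied at most 0.363% in each of the other 64. The limit of 1% that separates these groups was set after the values were seen. These neutrophil-rich members were 7 in the S3 dura mater, 2 in the D3 dura mater, 1 in the S3 brain and 0 in the D3 brain. The summed level of the neutrophil list in pDCs was 28848 CPM in the S3 brain, 31956 in the S3 dura mater, 195 in the D3 brain and 32136 in the D3 dura mater. Without the neutrophil-rich members it was 397, 458, 195 and 328, with Ly6g at 0. Counts over all genes past 2-fold between libraries are therefore given below with and without these cells. Levels per library are those of all members unless stated, as are the shares above. Without the neutrophil-rich members the share of pDCs was 0.572% in the S3 dura mater (21 cells) and 0.390% in the S3 brain (15 cells).

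Markers of most other cells were low in the remaining members, apart from the monocyte list. The B cell list stood at 21.3 to 76.0 CPM in the 4 libraries, against 4938 to 7364 in B cells. The T cell list stood at 0 to 59.6, against 2561 to 4134 in T cells. In the D3 dura mater 1 cell held 13 of the 14 UMIs of the T cell list and 22 UMIs of the NK cell list, and all 108 UMIs of the granzyme gene Gzmc in this library came from 1 cell. Macrophage markers stood at 32.2 to 244 CPM and microglia markers at 91.2 to 168, with Sall1 at 0. The rule itself sets Cd79a, Cd3e, P2ry12 and Tmem119 to 0, which lowers these sums by construction. The conventional dendritic cell list stood at 155 to 434, against 1138 to 1651 in conventional dendritic cells, with Xcr1 and Fscn1 at 0. The monocyte list was high, at 3922 to 4606 CPM against 729 to 1441 in conventional dendritic cells and 755 to 1388 in T cells, with Vcan at 0. It holds Plac8 and Ly6c2, which also stand in the list of pDC identity genes and were 2099 to 2544 and 945 to 1732 CPM in all pDCs. The plasma cell list stood at 123 to 193 CPM against 33.3 to 57.2 in T cells and 681 to 5766 in B cells. The NK cell list stood at 16.1 to 102, the mast cell list at 0 to 35.8 and the erythroid list at 0 to 59.0. What these RNAs contribute to the other results was not tested.

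The genes with the largest ratio of pDCs to all other cells included known pDC genes that the rule did not use. Over all libraries Klk1 was 224-fold, Ccr9 126-fold, Cd300c 125-fold and Cox6a2 117-fold higher in pDCs than in the rest. Pacsin1 (57.1-fold), AC140186.1 (44.9-fold), Upb1 (43.1-fold), Cd209d (40.8-fold), Runx2 (34.3-fold) and Smim5 (33.3-fold) followed. Cd300c encodes a receptor of the CD300 family, PACSIN1 bends membranes in vesicle traffic, and Runx2 is a transcription factor that is also needed for the exit of pDCs from the marrow. Cd300c was found in 69 of 74 cells, Pacsin1 in 62, Runx2 in 66 and Cd209d, a C-type lectin of the DC-SIGN family, in 40. These ratios describe the cells that the rule picked and are not a test.

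**Figure D2:**
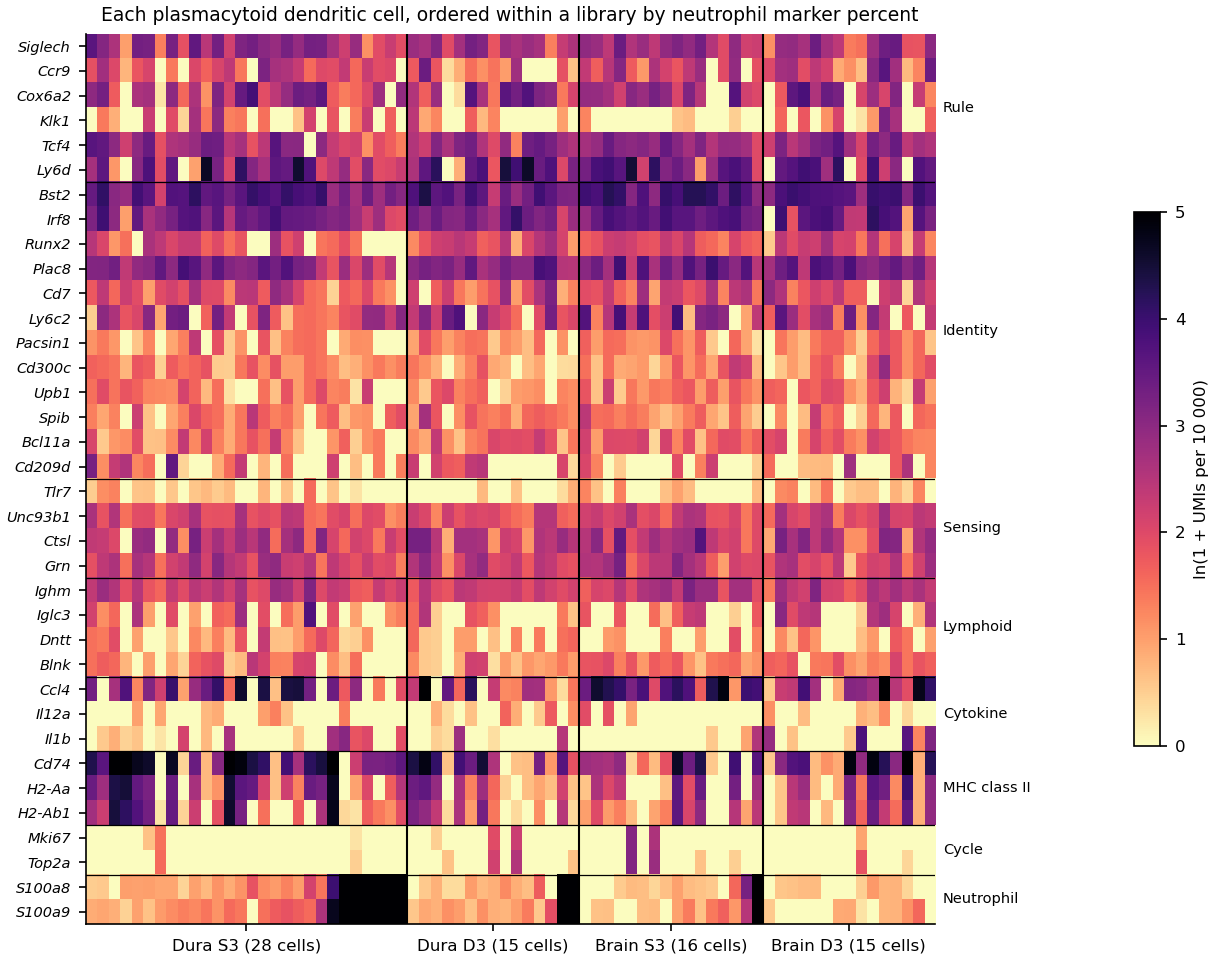
Natural log of 1 plus UMIs per 10000 (colour, capped at 5) of 36 genes (rows) in each of the 74 pDCs (columns), grouped by library and ordered within a library by the percent of UMIs from neutrophil markers. Siglech fills every column because the rule requires it, while Klk1 is present in 37 cells and the neutrophil genes are bright only in the neutrophil-rich cells at one edge of 3 libraries.

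A list of 27 pDC identity genes that the rule did not use was next set against 2 other cell classes of the same libraries, conventional dendritic cells (698 cells) and B cells (1548 cells). Of 3613 genes compared with conventional dendritic cells, 310 (8.58%) were at least 2-fold higher in pDCs in all 4 libraries and 148 (4.1%) at least 2-fold lower. Among the 25 identity genes that could be compared, 23 were higher and 0 lower, with a median log2 ratio of 3.28 against 0.26 over all genes. Against B cells, 265 of 3809 genes (6.96%) were higher and 101 (2.65%) lower in all 4 libraries, and 20 of the 25 identity genes were higher and 0 lower. Genes that defined the classes were left out. The cells were chosen by expression, so these counts describe the class and test nothing.

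Among the identity genes, Bst2 had the highest level. It encodes tetherin, an interferon-induced surface protein that the pDC antibody PDCA-1 recognises. It stood at 4322 CPM in the S3 brain, 3054 in the S3 dura mater, 3624 in the D3 brain and 2913 in the D3 dura mater, against 225 to 389 in conventional dendritic cells. Irf8 stood at 3435, 2399, 2479 and 2317, against 283 to 514. Runx2 stood at 613, 560, 597 and 678, against 19.5 to 26.2. For each of these genes the lowest pDC library lay above the highest library of conventional dendritic cells.

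Other identity genes had the same pattern at lower levels. Plac8 stood at 2099 to 2544 CPM in pDCs and 190 to 861 in conventional dendritic cells, and Cd7 at 583 to 673 and 34.8 to 130. Pacsin1 stood at 196 to 246 in pDCs, 1.18 to 5.08 in conventional dendritic cells and 1.91 to 12.9 in B cells. Spib, which is also a B cell factor, stood at 201 to 332 in pDCs and 6.21 to 22.5 in conventional dendritic cells, while B cells had 107 to 460. Lair1, an inhibitory collagen receptor, stood at 403 to 456 in pDCs and at most 40.4 in B cells. Lag3, another inhibitory receptor, stood at 135 to 277 against at most 17.4 in both classes. Flt3, the cytokine receptor on which all dendritic cells depend and which was part of the gate of the conventional ones, stood at 167 to 190 in pDCs and 105 to 166 in conventional dendritic cells.

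**Figure D3:**
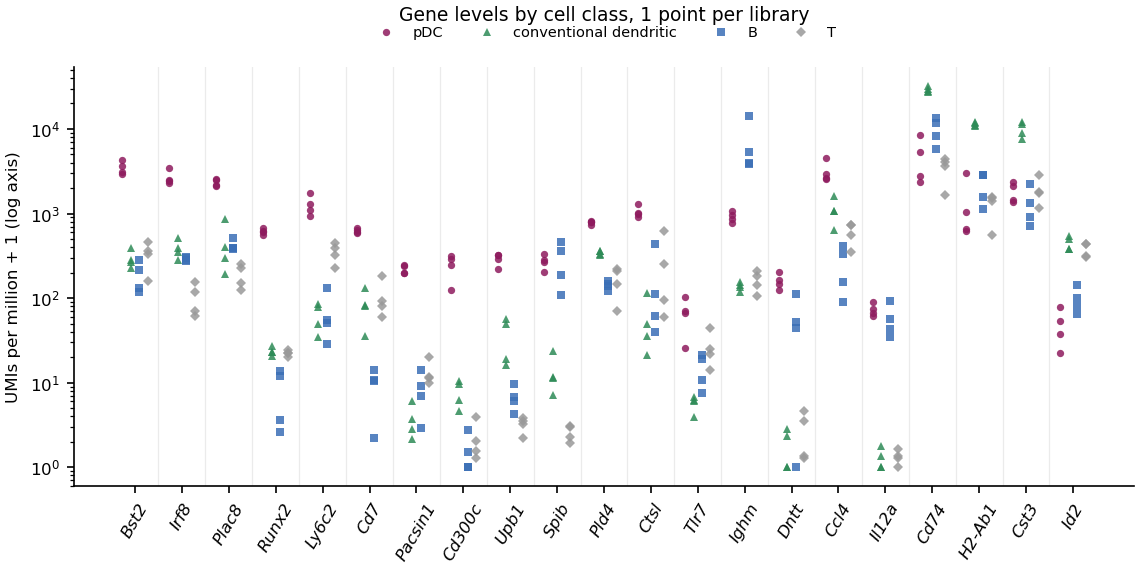
CPM plus 1 (log axis) of selected genes in pDCs, conventional dendritic cells, B cells and T cells, with 1 point per library. Bst2, Irf8 and Runx2 separate pDCs from the other classes, Ighm is highest in B cells, and Cd74 is highest in conventional dendritic cells.

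The endosomal sensing machinery was read mostly through its processing enzymes, because the receptors themselves were near the limit of detection. Tlr7, the sensor of single-stranded RNA, had 66 UMIs in 36 of 74 pDCs, with 69.6 CPM in the S3 brain, 65.4 in the S3 dura mater, 103 in the D3 brain and 25.0 in the D3 dura mater, against 2.94 to 5.85 in conventional dendritic cells. Tlr9, the sensor of unmethylated DNA, had 6 UMIs in 6 cells. T cells, with macrophage RNA of 1964 to 8902 CPM in their gate and median depths of 7084.5 to 8167 UMIs, had Tlr7 UMIs in 6.92 to 22.7% of cells against 26.7 to 66.7% of pDCs. After thinning each cell to 2000 UMIs these shares were 1.25 to 3.73% and 4.81 to 19.2%. Of 15 genes of the sensing list, 5 were at least 2-fold higher than in conventional dendritic cells in all 4 libraries and 0 lower. The 5 were Tlr7, Grn, Pld4, Ctsb and Ctsl. Over all genes compared, 8.58% were higher and 4.1% lower. Cathepsins B and L cleave endosomal receptors, progranulin (Grn) binds DNA for TLR9, and PLD4 degrades single-stranded nucleic acids in endosomes.

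Pld4 stood at 728 to 812 CPM in pDCs and 324 to 361 in conventional dendritic cells. Ctsl stood at 1295 in the S3 brain, 916 in the S3 dura mater, 1020 in the D3 brain and 996 in the D3 dura mater, against 20.5 to 115 in conventional dendritic cells. Unc93b1, the chaperone that carries nucleic acid receptors to endosomes, was found in all 74 pDCs at 610 to 787, against 322 to 376. Irf7, the factor that switches on interferon genes, stood at 390 in the S3 brain, 246 in the S3 dura mater, 125 in the D3 brain and 218 in the D3 dura mater, and conventional dendritic cells had 83.7 to 142.

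No UMI of a type I or type III interferon gene was found in the 74 pDCs. The listed genes of these families were Ifnb1, Ifnk and Ifnz, and the files list no gene seen in fewer than 3 cells of a library. By the approximation of 3 divided by the number of cells, a count of 0 in 74 cells allows a share of up to about 4.05% with such a UMI. This is not one of the exact 95% intervals used elsewhere, which would reach higher. All other cells together held 344 UMIs of these genes, 166 in the S3 brain, 7 in the S3 dura mater, 153 in the D3 brain and 18 in the D3 dura mater. Receptor genes were present, with Ifnar1 at 113 to 251 CPM and Ifnar2 at 270 to 407, against 50.3 to 67.6 and 80.5 to 115 in conventional dendritic cells. Ifngr1, which encodes a chain of the type II interferon receptor, was lower, at 37.1 to 174 against 297 to 486. Of 14 interferon-stimulated genes compared, 2 (Bst2 and Slfn8) were higher and 1 (Cxcl10) lower. Without the neutrophil-rich members Bst2 was higher and Ifitm3 and Cxcl10 lower among 12. Over all genes compared with conventional dendritic cells, 8.58% were higher and 4.1% lower, so counts this small are near that share.

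The chemokine gene Ccl4, whose product draws leukocytes, was the most abundant gene of the cytokine list. It stood at 4587 CPM in the S3 brain, 2598 in the S3 dura mater, 2908 in the D3 brain and 2563 in the D3 dura mater, and was found in 66 of 74 cells. The S3 brain was highest and the other libraries lay close together, above the 646 to 1602 of conventional dendritic cells. Cells varied widely, from 0 to 332 UMIs per 10000 in the D3 dura mater, where the median cell had 4.02. Il12a, the p35 chain of interleukin 12, had 76 UMIs in 25 cells and stood at 60.2 to 89.2, against 0 to 0.802 in conventional dendritic cells. Its partner chain Il12b and the chemokine gene Ccl22 had 0 UMIs. Of 11 genes of the list, Il12a and Ccl4 were higher than in conventional dendritic cells in all 4 libraries. Il1b, Ccl5, Ccl22, Cxcl10 and Cxcl16 were lower in all 4. Over all genes compared, 8.58% were higher and 4.1% lower. Ccl5 was not among the lower genes without the neutrophil-rich members.

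pDCs carried transcripts of early lymphoid genes and almost none of the B cell commitment factors Ebf1 and Pax5. The rule leaves out every cell with a Cd79a UMI, so cells with a B cell program were in part removed beforehand. Dntt, the polymerase that adds bases to antigen receptor joints, had 177 UMIs in 45 of 74 pDCs and stood at 125 CPM in the S3 brain, 204 in the S3 dura mater, 146 in the D3 brain and 161 in the D3 dura mater. Conventional dendritic cells had 0 to 1.87 and T cells 0.304 to 3.59. Ighm, the heavy chain constant region gene, was found in all 74 cells at 771 to 1077, against 117 to 155 in conventional dendritic cells and 3878 to 14121 in B cells. Igkc, the kappa light chain gene, stood at 54.9 to 211 CPM in pDCs and 7115 to 62438 in B cells. Iglc3 stood at 189 to 548 in pDCs and 357 to 1298 in B cells, and reads of its near-identical neighbours could not be told apart with certainty. Blnk, an adaptor of the B cell receptor, stood at 171 to 362 in pDCs and 133 to 294 in B cells. Cd4 stood at 55.7 to 113 in pDCs, 24.1 to 58.4 in T cells and at most 3.07 in conventional dendritic cells. Ebf1 and Pax5 had 1 UMI each and Rag1 and Rag2 had 0.

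Few secretory genes differed from conventional dendritic cells, and the 2 of 19 that were higher lie near the 8.58% of all genes. Xbp1, the factor that expands the endoplasmic reticulum in secretory cells, stood at 297 to 385 CPM in pDCs and 101 to 132 in conventional dendritic cells. It was higher in all 4 libraries together with Herpud1, a factor of protein degradation at the endoplasmic reticulum, and the remaining genes of the 19 compared were neither higher nor lower. Of 16 homing genes compared, 4 were higher and 0 lower, S1pr4, Selplg and Pecam1 among the higher ones. Over all genes compared, 8.58% were higher and 4.1% lower. Without the neutrophil-rich members Cd9 was lower. Selplg, the selectin ligand PSGL-1, stood at 852 to 1074 against 360 to 419, and S1pr4, a receptor of sphingosine 1-phosphate, at 57.1 to 116 against 7.58 to 15.7.

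Antigen presentation genes were the group in which pDCs lay furthest below conventional dendritic cells. Of 16 genes compared, 0 were higher and 11 were at least 2-fold lower in all 4 libraries, with a median log2 ratio of -2.60. Over all genes compared, 8.58% were higher and 4.1% lower. The gate of the conventional dendritic cells used H2-Aa, which was left out of this count, so other class II genes that go with it are not independent of the gate. H2-Ab1, a class II chain, stood at 618 to 3001 CPM in pDCs and 10880 to 12226 in conventional dendritic cells, and Cd83, a maturation marker, at 13.9 to 195 and 706 to 893. Id2, which opposes TCF4 in dendritic cell development, stood at 21.7 to 78.5 against 375 to 537.

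Within the pDCs, class II genes also varied between libraries and between cells. H2-Aa stood at 3161 CPM in the S3 dura mater, 717 in the D3 dura mater, 928 in the S3 brain and 1411 in the D3 brain. Cd74, the invariant chain of class II molecules, stood at 8430, 2809, 2354 and 5365 in the same order. The S3 dura mater was highest in both genes. The antigen presentation list also holds genes outside class II, such as Cd83. Its summed level was lower in D3 than in S3 dura mater by 1.16 on the log2 scale (a log2 ratio of -1.16, interval -1.21 to -1.10). Of its 11 genes with enough UMIs, 5 were at least 2-fold lower (H2-Aa, H2-Ab1, H2-Eb1, Cd74 and Cd83). Over all genes of this contrast with at least 50 UMIs, 53 of 2162 (2.45%) were at least 2-fold higher and 43 (1.99%) at least 2-fold lower in D3.

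The difference was also present without the neutrophil-rich cells. Without them the list had a log2 ratio of -1.07 and the same 5 genes were lower, with H2-Eb1 at -2.10, H2-Ab1 at -2.08, H2-Aa at -1.91 and Cd74 at -1.68, while 53 of 1678 genes (3.16%) were higher and 28 (1.67%) lower. A single cell held 31 to 44% of the UMIs of these 4 genes in the S3 dura mater. Per cell, the list made up 21.3 to 675 UMIs per 10000 in the 28 cells of the S3 dura mater, with a median of 134. In the 15 cells of the D3 dura mater it made up 24.5 to 404, with a median of 93.9. The ranges of the cells overlapped, and with 1 library per condition the difference cannot be told apart from one between libraries or mice.

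**Figure D4:**
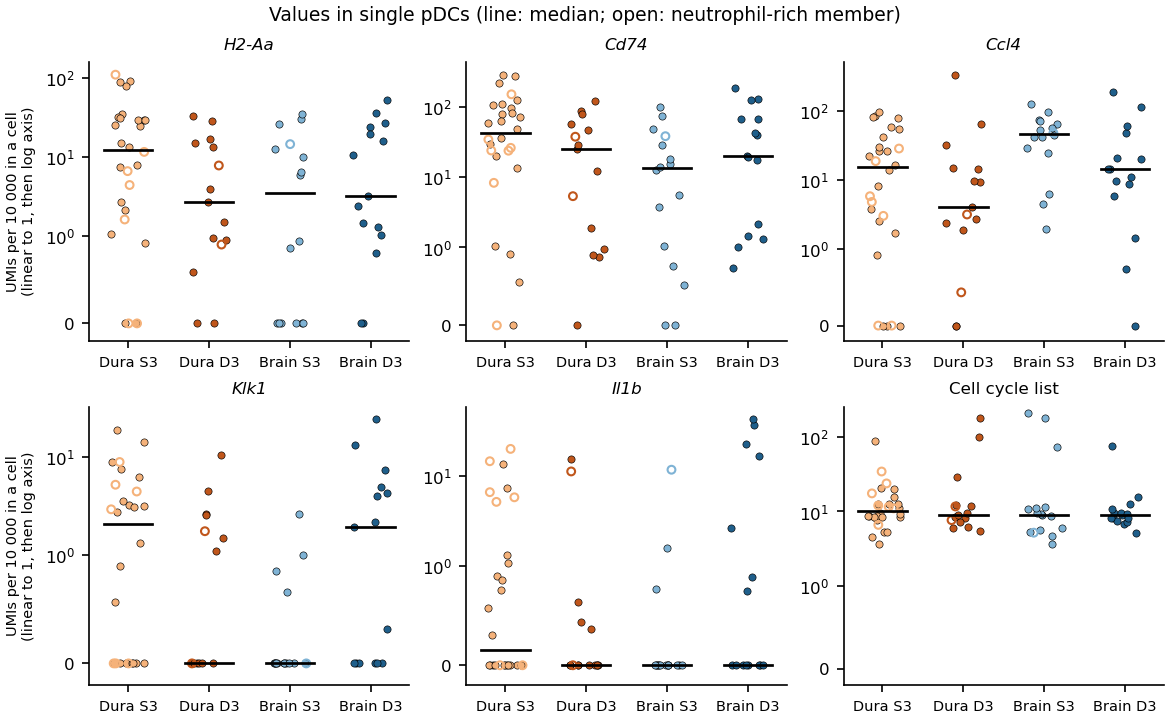
UMIs per 10000 in each pDC (y axis) for H2-Aa, Cd74, Ccl4, Klk1, Il1b and the summed cell cycle list, by library (x axis); the line is the median and open points are neutrophil-rich cells. H2-Aa has its highest median in the S3 dura mater, and a few cells lie far above the median of each library.

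In the brain the antigen presentation list went the other way between conditions. Its summed log2 ratio of D3 to S3 was 0.50 (0.42 to 0.58), with 1 of 9 genes, Cd74, at least 2-fold higher and 0 lower. Over all genes, 44 of 1240 (3.55%) were at least 2-fold higher and 49 (3.95%) at least 2-fold lower. The value fell to 0.06 when members had to carry at least 4 of the 6 rule genes, a condition that removes 3 cells of the D3 brain. Per cell the list made up at most 268 UMIs per 10000 in the S3 brain with a median of 89.7, and at most 405 in the D3 brain with a median of 98.4. Without the neutrophil-rich member of the S3 brain, 36 of 1146 genes (3.14%) were higher and 43 (3.75%) lower, and H2-Eb1 joined Cd74 among the higher genes.

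Between tissues in S3, brain pDCs had lower class II levels than dura mater pDCs. The summed log2 ratio of brain to dura mater for the antigen presentation list was -1.23 (-1.30 to -1.16). Of its genes, 5 of 11 were at least 2-fold lower, the same genes as in the comparison of D3 with S3 dura mater. Cd83 was no longer among them without the neutrophil-rich members, where 4 of 9 were lower. Over all genes, 42 of 1873 (2.24%) were at least 2-fold higher in the brain and 81 (4.32%) at least 2-fold lower. Both comparisons share the S3 dura mater library. In D3 the log2 ratio was 0.42 for the list, and 38 of 1490 genes (2.55%) were higher in the brain and 83 (5.57%) lower. This list ratio was much smaller when members had to carry at least 4 of the 6 rule genes. Without the neutrophil-rich members, 40 of 1460 genes (2.74%) were higher and 59 (4.04%) lower in the S3 brain than in the S3 dura mater, and 35 of 1352 (2.59%) were higher and 70 (5.18%) lower in D3.

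Few pDC identity genes passed 2-fold between conditions. Their summed log2 ratio of D3 to S3 was -0.02 (-0.08 to 0.03) in the dura mater, where 0 of 26 genes passed 2-fold, and -0.19 (-0.25 to -0.12) in the brain, where Lag3 was higher and Irf7 lower among 25. Without the neutrophil-rich members Fcrla was lower in the dura mater, and in the brain Irf7 was lower and 0 genes higher. The summed ratios were then -0.10 (-0.16 to -0.04) in the dura mater and -0.28 (-0.35 to -0.21) in the brain. Of 27 genes with 10 or more UMIs, 18 lay below 0 in the dura mater and 20 in the brain. Over all genes the shares past 2-fold were 2.45% higher and 1.99% lower in the dura mater, and 3.55% and 3.95% in the brain. Irf7 had 84 UMIs in the S3 brain and 23 in the D3 brain, a log2 ratio of -1.64 (-2.38 to -0.96). Without the neutrophil-rich cells it was found in 11 of 15 cells in both libraries, and 1 cell of the S3 brain held 49% of that library's Irf7 UMIs. Klk1 had a log2 ratio of 3.47 (2.26 to 4.98) in the brain and -1.09 (-1.63 to -0.58) in the dura mater, where it was -0.99, under 2-fold, without the neutrophil-rich members.

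The summed level of the interferon-stimulated list differed little between conditions in the pDCs. Bst2, also an identity gene, is part of it and stood at 3373 CPM over all pDCs. The list as a whole summed to 6054 to 6966 CPM per library, so the sum rests largely on Bst2. Among genes with 10 or more UMIs, the median log2 ratio was -0.32 in the dura mater, with 21 of 33 below 0. It was 0.05 in the brain, with 10 of 17 above 0. Without the neutrophil-rich members the medians were 0.04 and -0.09. The summed log2 ratio of D3 to S3 was -0.15 (-0.24 to -0.06) in the dura mater and 0.05 (-0.06 to 0.16) in the brain. In the dura mater 1 of 9 genes, Ifi27l2a, was at least 2-fold lower and 0 higher, and in the brain 1 of 6, Ifitm3, was at least 2-fold higher and 0 lower. Without the neutrophil-rich members the gene lower in the dura mater was Slfn5 in place of Ifi27l2a, and the summed ratios were -0.11 and -0.07. Over all genes 1.99% were lower in the dura mater and 3.55% higher in the brain. The negative value in the dura mater did not hold when each cell counted equally, where it was 0.09. The median cell had 50.7 UMIs per 10000 of the list in the S3 dura mater, 49.9 in the D3 dura mater, 69.5 in the S3 brain and 67.1 in the D3 brain.

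**Figure D5:**
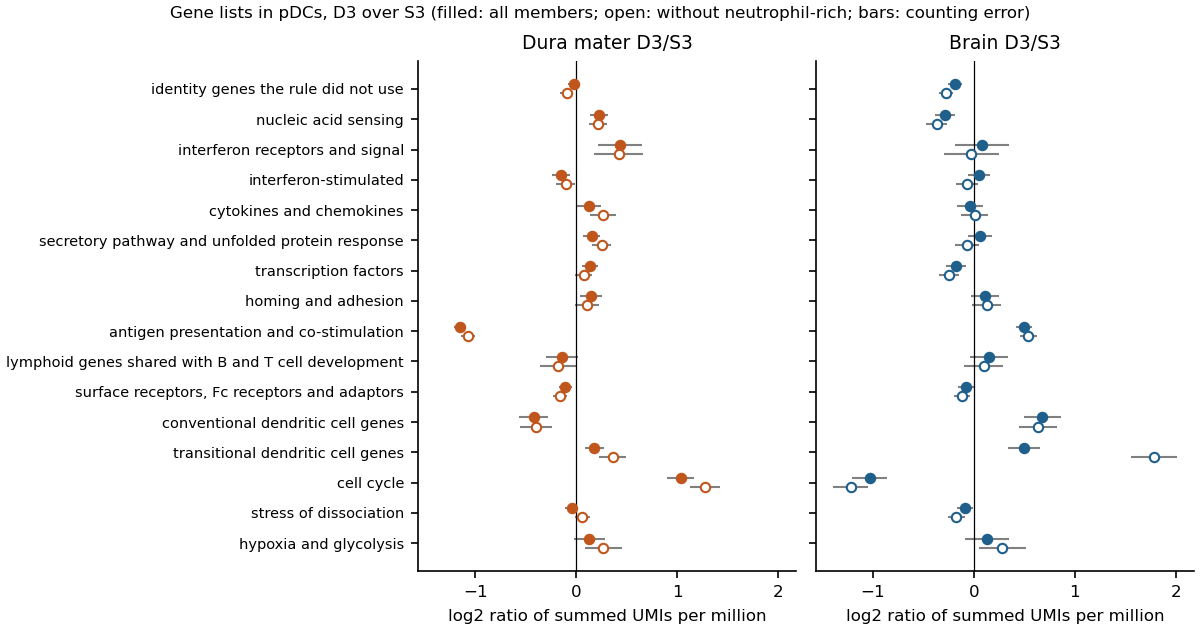
Log2 ratio of D3 to S3 of the summed UMIs of each gene list in pDCs (x axis), for the dura mater and the brain, with all members and without the neutrophil-rich ones; bars are exact 95% intervals for counting error. The antigen presentation list lies at -1.16 in the dura mater and 0.50 in the brain, and the cell cycle list at 1.03 and -1.03.

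Cell cycle genes rested on few cells. Mki67, a marker of dividing cells, reached at least 5 UMIs in 6 members, of which 2 were in the S3 brain, 1 in the S3 dura mater, 1 in the D3 brain and 2 in the D3 dura mater. The summed log2 ratio of the list between D3 and S3 was 1.03 (0.90 to 1.17) in the dura mater and -1.03 (-1.21 to -0.86) in the brain. The richest cell held 37 to 63% of the UMIs of the list in each library, and the median cell had 9.06 UMIs per 10000 in the S3 brain, 10.3 in the S3 dura mater, 8.83 in the D3 brain and 8.90 in the D3 dura mater. The medians therefore did not show the differences of the sums.

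Between D3 and S3 brain pDCs, the genes with the largest ratios without the neutrophil-rich members were Il1b, Lyz2, Ifitm2, Cxcl2, Apoe and Ifitm3 among the higher ones. The lower ones were Hist1h2ap (-3.81), Irf7, Hspa1b, Stmn1, Rgs1 and Jund. Hist1h2ap and Stmn1 had 52 and 53% of their S3 UMIs in 1 cell, and each was found in 6 of 15 S3 cells. Il1b, the gene of interleukin 1 beta, had 262 UMIs in 7 of 15 cells of the D3 brain and 2 UMIs in 2 of 15 cells of the S3 brain, a log2 ratio of 7.05 (5.18 to 10.1), with 53% of the D3 UMIs in 1 cell. Lyz2, the lysozyme gene of myeloid cells, had 299 against 6 UMIs, with 83% of the D3 UMIs in 1 cell. Cxcl2, a neutrophil attractant, had 116 against 6, with 64% in 1 cell. Apoe, a lipid carrier made by microglia and macrophages, was spread more widely, with 515 UMIs in 15 of 15 cells against 29 in 14 of 15, a log2 ratio of 4.17 (3.63 to 4.76), although 47% of the D3 UMIs were in 1 cell. The median D3 brain cell had 4.83 Apoe UMIs per 10000. In the same cells the macrophage list stood at 32.2 CPM in S3 and 244 in D3, and the conventional dendritic cell list at 155 and 434.

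Other cell classes of the D3 brain had higher Apoe as well. T cells stood at 22120 CPM in the D3 brain and 4233 in the S3 brain, conventional dendritic cells at 2167 and 293, and all pDCs at 2794 and 186. The pDC level therefore lay below that of the T cell gate in both libraries, and the same held for Cxcl2, at 629 and 37.1 in all pDCs against 1089 and 258. Il1b stood at 1421 in D3 and 167 in S3 over all brain pDCs, and at 10.7 in S3 without the neutrophil-rich cell, against 1112 and 254 in T cells. How much free RNA adds to these values in pDCs was not tested.

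In the dura mater several of the genes with the largest ratios of D3 to S3, again without the neutrophil-rich members, rested on single cells. Hist1h2ap, a replication-dependent histone gene, had 82% of its 130 D3 UMIs in 1 cell, Hmgb2, a chromatin protein of dividing cells, 66% of 329, and S100a4, a calcium-binding protein, 76% of 127. Ccl3, a relative of Ccl4, had 90 UMIs in D3 and 6 in S3, a log2 ratio of 4.16 (2.98 to 5.64), but the median cell had 0 in both. The genes lower in D3 after the class II genes, Tifa (log2 ratio -1.49, an adaptor of NF-kB signalling) and Jmjd1c (-1.05, a chromatin factor), were more evenly spread, with the richest cell at 14 and 19% of the S3 UMIs. With all members the genes with the largest ratios lower in D3 were the heat shock genes Hspa1a and Hspa1b and the neutrophil genes Ltf, Camp, Chil3 and Ngp.

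Between the tissues in S3, again without the neutrophil-rich members, the genes with the largest ratios higher in brain pDCs were Hist1h2ap (6.00) and Hmgn2 (2.42). Rgs1, Hspa1b, Hsp90aa1 and Stmn1 followed. A single S3 brain cell held 52% of the Hist1h2ap UMIs, 40% of those of Hmgn2, 40% of Hspa1b and 53% of Stmn1. Hist1h2ap and Stmn1 were each found in 6 of 15 S3 brain cells. Of 16 genes of the dissociation stress list 4 were higher (Jun, Hspa1a, Hspa1b and Hsp90aa1) and 4 lower (Fosb, Junb, Nr4a1 and Btg2), with a summed log2 ratio of 0.14. The chaperone gene Hsp90aa1 had a log2 ratio of brain to dura mater of 1.66 (1.39 to 1.94), with UMIs in 15 of 15 and 21 of 21 cells, and Rgs1, a regulator of chemokine receptor signalling, had 2.08 (1.55 to 2.64), with 43% of its S3 brain UMIs in 1 cell. Pim1, a kinase induced by cytokines, was lower in the brain at -1.89 (-2.53 to -1.31), beside H2-Eb1 at -2.60. In D3, the genes higher in brain pDCs included Ctsd, a lysosomal protease, at 1.91 (1.34 to 2.50), in 14 of 15 cells against 10 of 13, and Cd209a, a lectin of dendritic cells, at 1.54 (0.92 to 2.20).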

How the data were processed

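CD45+ cells of the dura mater and brain were profiled with 10x Chromium 3′ v3 chemistry, 1 library per tissue and condition. The submitters' processing notes name Cell Ranger 3.1.0, Seurat 3.1.0 and the mouse build mm10. The deposited values are, on the natural log scale, 1 plus the UMIs of a gene per 10000 UMIs of the barcode, and every listed gene occurs in 3 or more barcodes of its library.

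Whole UMIs were recovered from these values (100.0% came out whole within 1e-06), with total depths of 49003977 to 115154317 UMIs per library. They were summed over the pDCs of each library and given per 1000000. Shares have exact Clopper-Pearson 95% intervals, and ratios have exact intervals of 2 Poisson counts. No test over samples was made, because each group is 1 library. Genes with at least 50 UMIs over both groups were counted as different at 2-fold, with 0 UMIs set to 3. The comparison classes were gated on B cell (Cd79a, Ms4a1, Cd79b and a gene that is not reported here), T cell (Cd3e, Cd3d, Cd3g, Trac, Trbc2), conventional dendritic cell (H2-Aa with Flt3, Zbtb46, Cd209a, Xcr1, Clec9a, Itgax, Ccr7, Fscn1, Batf3) and microglia genes. Doublet removal, by Scrublet scores (scanpy 1.11.5), was an alternative only. Python 3.11.15, numpy 2.4.6, scipy 1.17.1 and pandas 2.3.3 were used, and the recovery and the fold counts were tested on simulated data.

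Members and gene lists were chosen with earlier results of these data known. Genes were named from fixed lists, as at most 6 genes a direction with the largest ratio among those with at least 100 UMIs and 2-fold per contrast, and as the 15 genes of largest ratio to all other cells among those with at least 200 UMIs. Cells forming subsets, the neutrophil limit and the comparison without neutrophil-rich cells were chosen after the values were seen.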

Additional observations from a re-analysis of the deposited data

Results flagged for a closer look

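The summed log2 ratio of D3 to S3 had opposite signs in the dura mater and the brain for 4 gene lists in pDCs, with counting intervals that exclude 0 in both tissues. The antigen presentation list had -1.16 in the dura mater and 0.50 in the brain. The conventional dendritic cell list had -0.42 and 0.68, the nucleic acid sensing list 0.22 and -0.29, and the cell cycle list 1.03 and -1.03. Each value compares 1 library with 1 library, and the difference between the tissues was not tested. With at least 4 of the 6 rule genes the antigen presentation ratio of the brain was much smaller. After thinning, the sensing ratio of the brain was no longer below 0. For the cell cycle list the richest cell held 37 to 63% of a library's UMIs, and the medians per cell did not show the differences of the sums. In the sensing list the genes past 2-fold were Hmgb2, higher in the D3 dura mater, and in the brain Irf7, Hmgb1 and Hmgb2, lower, and Lgmn, higher. Hmgb2 did not pass 2-fold in the brain without the neutrophil-rich members. In the dura mater without those members, Hmgb2 had 329 UMIs in D3 and 106 in S3, with 66% of the D3 UMIs in 1 cell. The median log2 ratio of the 16 sensing genes with 10 or more UMIs was -0.09 there, with 5 above 0 and 11 below 0. In the conventional dendritic cell list the gene past 2-fold was Cd209a, higher in the D3 brain. Cst3, also of this list, stood at 4253 CPM in the 6 members with exactly 3 rule genes, 3 of them in the D3 brain. In the 30 members with all 6 genes, leaving aside neutrophil-rich cells, it stood at 1494.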

How the results depend on the processing

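No paired analysis was possible because each group is 1 library and no result comes from a test. The share of pDCs was 2.68% in the S3 brain, 1.77% in the S3 dura mater, 2.59% in the D3 brain and 1.40% in the D3 dura mater when P2ry12, Tmem119, Cd79a, Cd3e and C1qa were not used, and 0.141% in the S3 brain and 0.156% in the D3 brain at a mitochondrial limit of 5%. At 20 UMIs per gene the counts of genes 2-fold higher and lower were 223 and 197 for dura mater D3/S3, 166 and 221 for brain D3/S3, 189 and 313 for S3 brain/dura mater and 151 and 342 for D3 brain/dura mater. At 100 UMIs they were 19 and 18, 16 and 20, 16 and 39, and 16 and 20. Without the neutrophil-rich members 28 genes were lower in the D3 dura mater. A further setting left out, for each gene separately, the member of each library with the most UMIs of that gene. Under it 21 genes were higher in the D3 dura mater, 28 lower in the D3 brain and 23 higher in the S3 brain. In the D3 brain against dura mater 24 were higher and 44 lower. Counts against conventional dendritic cells and B cells stayed within 1.5 times, with ranges of 253 to 336 higher and 133 to 193 lower, and of 234 to 294 and 97 to 128, when 1 library was left out. Interferon UMIs stayed at 0 with 2 of 6 rule genes.

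The antigen presentation ratio of dura mater D3/S3 was -1.08 with 4 of 6 rule genes, -1.26 without doublets, -0.72 after thinning to 2000 UMIs, -0.69 as a mean per cell, -0.91 at a mitochondrial limit of 10% and -1.07 without the neutrophil-rich members. In brain D3/S3 it was 0.063 with 4 of 6, 0.38 thinned and 0.22 without the richest members. For a list, the richest member is the cell of each library with the most UMIs of that list. In S3 brain/dura mater it was -1.08 with 4 of 6, -1.44 without doublets, -0.90 thinned, -0.96 as a mean per cell, -1.01 at 10% and -1.02 without the richest. In D3 brain/dura mater it was 0.063 with 4 of 6, 0.21 thinned, 0.16 as a mean per cell, 0.32 at 10%, 0.51 without ribosomal and mitochondrial genes and 0.31 without the richest.

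The interferon-stimulated ratio of dura mater D3/S3 was -0.24 with 4 of 6, turned to 0.13 thinned and 0.093 as a mean per cell, and was -0.25 without the richest. In brain D3/S3 it was -0.068 without doublets or without neutrophil-rich members, -0.078 thinned and 0.17 without the richest. In S3 brain/dura mater it was 0.23 thinned and 0.23 as a mean per cell, and in D3 brain/dura mater 0.020 thinned, 0.086 as a mean per cell and 0.41 without the richest. Other lists that changed sign were, in dura mater D3/S3, cytokines (-0.12 at 10%, -0.78 without the richest), surface receptors (0.031 without the richest) and transitional dendritic cell genes (-0.092 without doublets, -0.92 thinned, -0.61 as a mean per cell), in brain D3/S3 after thinning the rule genes (0.12), nucleic acid sensing (0.00035) and transcription factors (0.059), and in D3 brain/dura mater the identity genes (-0.041 without the richest). The causes were not tested. Depth limits genes such as Tlr9, and the settings at 10%, without neutrophil-rich and without the richest members were chosen after seeing the data.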

Other observations

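pDCs also differed from conventional dendritic cells in surface receptors, with 9 of 22 genes at least 2-fold higher in all 4 libraries and 0 lower, against 8.58% higher and 4.1% lower over all genes. The counts were 9 of 20 higher and 1, Fcgr3, lower without the neutrophil-rich members. Ptprf, a receptor tyrosine phosphatase, had 81 UMIs in 42 of 74 pDCs and stood at 32.6 to 96.8 CPM, against 0.237 to 2.05 in conventional dendritic cells and 0 to 0.608 in T cells. Lifr, the receptor of leukaemia inhibitory factor, stood at 139 to 186 against 17.1 to 62.0. Kmo, an enzyme of tryptophan breakdown, stood at 146 to 204 against 38.7 to 57.7. In the 64 members below the limit of 1% neutrophil marker UMIs, class II was unevenly spread: 23 cells had 0 or 1 UMI of H2-Aa and 30 had at least 10. Cd74 stood at 232 CPM in the former and 9180 in the latter, while Bst2 stood at 3210 and 3607 and Irf8 at 3296 and 2316. These subsets were formed on H2-Aa after its values were seen, and nothing was tested between them.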
